A study of Mus musculus with 6 samples.

Results

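Heat shock proteins and molecular chaperones fold new and damaged proteins, and several of them also hold the glucocorticoid receptor in the shape that binds hormone. The genes described here were chosen by symbol alone: the HSP90, HSP70, HSP110, small HSP, HSP60 and HSP10 genes, the J-domain families Dnaja, Dnajb and Dnajc, the subunits of the chaperonin TRiC, Bag1 to Bag6, the receptor co-chaperones Fkbp4, Ptges3 and Stip1, and the heat shock factors Hsf1 and Hsf2. The rule found 89 genes among the 53819 symbols of the count table, of which 80 had enough reads for a test. RNA was sequenced from 3D gastruloids, which are aggregates of mouse embryonic stem cells that mimic early body plan formation, all made from the single stem cell line E14. The untreated group has 3 libraries, and another 3 come from aggregates given budesonide, a synthetic glucocorticoid, for 80 h, and no genetic change is named for either group. The labels give no dose, name no vehicle for the untreated aggregates and do not say when these were collected. Whether replicates came from separate cultures is also not said, and the p-values rest on the spread among the libraries, which may be technical.

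Libraries held 5666168 to 7476862 counted reads. The stem cell marker list, Pou5f1 among its 7 genes, summed to 1284 to 1336 CPM without and 1836 to 2037 CPM with budesonide. CPM are read counts scaled to a common library size, with TMM factors between libraries. Stem cell marker RNA was thus present in every library, which does not by itself show that the aggregates formed gastruloids. The 5 posterior streak and tailbud markers summed to 248 to 270 and 8.59 to 13.2 CPM, and the 6 extraembryonic endoderm markers to 14.6 to 20.8 and 5.92 to 7.91 CPM. Of these endoderm markers only Foxa2 was called, falling from a mean of 11.2 to 0.811 CPM. Gata4, Gata6 and Sox17 did not pass, and Afp and Ttr had too few reads for a test. The 5 fibroblast markers summed to 15.6 to 16.8 and 8.59 to 10.1 CPM, and the 4 trophoblast markers to 20.4 to 27.3 and 29.2 to 35.9 CPM. Of the trophoblast markers Tfap2c rose, Krt7 did not pass the test described below, and Elf5 and Prl3d1 had too few reads for it. The 5 neuronal markers summed to 94.9 to 102 and 134 to 143 CPM, but they split. Stmn2 and Tubb3 rose, while Dcx, Map2 and Rbfox3 fell. The 5 muscle markers summed to 557 to 619 and 819 to 832 CPM, nearly all of it Ttn. They split too, as Ttn rose while Myh6 fell from a mean of 17.3 to 11.1 CPM. Actc1, Myl7 and Myod1 had too few reads for a test. Prl3d1 of the trophoblast list was at 0 reads in at least 1 library, and every other marker had reads in all 6. These marker lists moved with treatment, and their part in the chaperone results was not tested. In such bulk samples fewer cells of a type and less RNA per cell cannot be told apart. Untreated replicate 1 stood apart from the other two by a chi-square per gene of 2.95 and 3.13, against 1.42 between those, and budesonide replicate 2 likewise by 2.75 and 3.04, against 1.95.

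In the folding cycle of the glucocorticoid receptor, HSP70 with a J-domain protein takes up the receptor, Stip1 (Hop) passes it to an HSP90 dimer, and Ptges3 (p23) and Fkbp4 (FKBP52) complete the complex that binds steroid. Bag proteins release the bound protein from HSP70. When unfolded proteins accumulate, the factor HSF1 switches on cytosolic chaperone genes through heat shock elements, and the unfolded protein response switches on chaperones of the endoplasmic reticulum.

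With budesonide 14 of the 80 tested genes rose and 7 fell. That is 26.2% called, beside 28.7% of all 17155 tested genes (edgeR with its quasi-likelihood F test, p adjusted by Benjamini-Hochberg over all of them, threshold 0.05), where 15.2% rose and 13.5% fell. The median log2 fold change of the chaperones was 0.06, and that of all tested genes was -0.02. Changes past the test that also exceeded 1.5-fold were found in 4 chaperone genes, Hspb1, Dnajc6, Hspb8 and Bag2 (5.0%, against 13.0% of all tested genes), and only Hspb1 and Dnajc6 passed 2-fold. In 25 of the 80 genes the 3 libraries of the groups did not overlap, beside 39.6% of all tested genes. The split of 14 higher to 7 lower depended on the scaling between libraries: it was 12 to 11 with upper quartile scaling and 11 to 14 with library totals alone. All genes shifted the same way, from 52.9% higher among the changed to 43.1% and 38.6%. Adjusted p-values quoted below are from the edgeR test. Counts in the smaller lists below are descriptions, to be read beside the 28.7% of all tested genes.

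**Figure D1:**
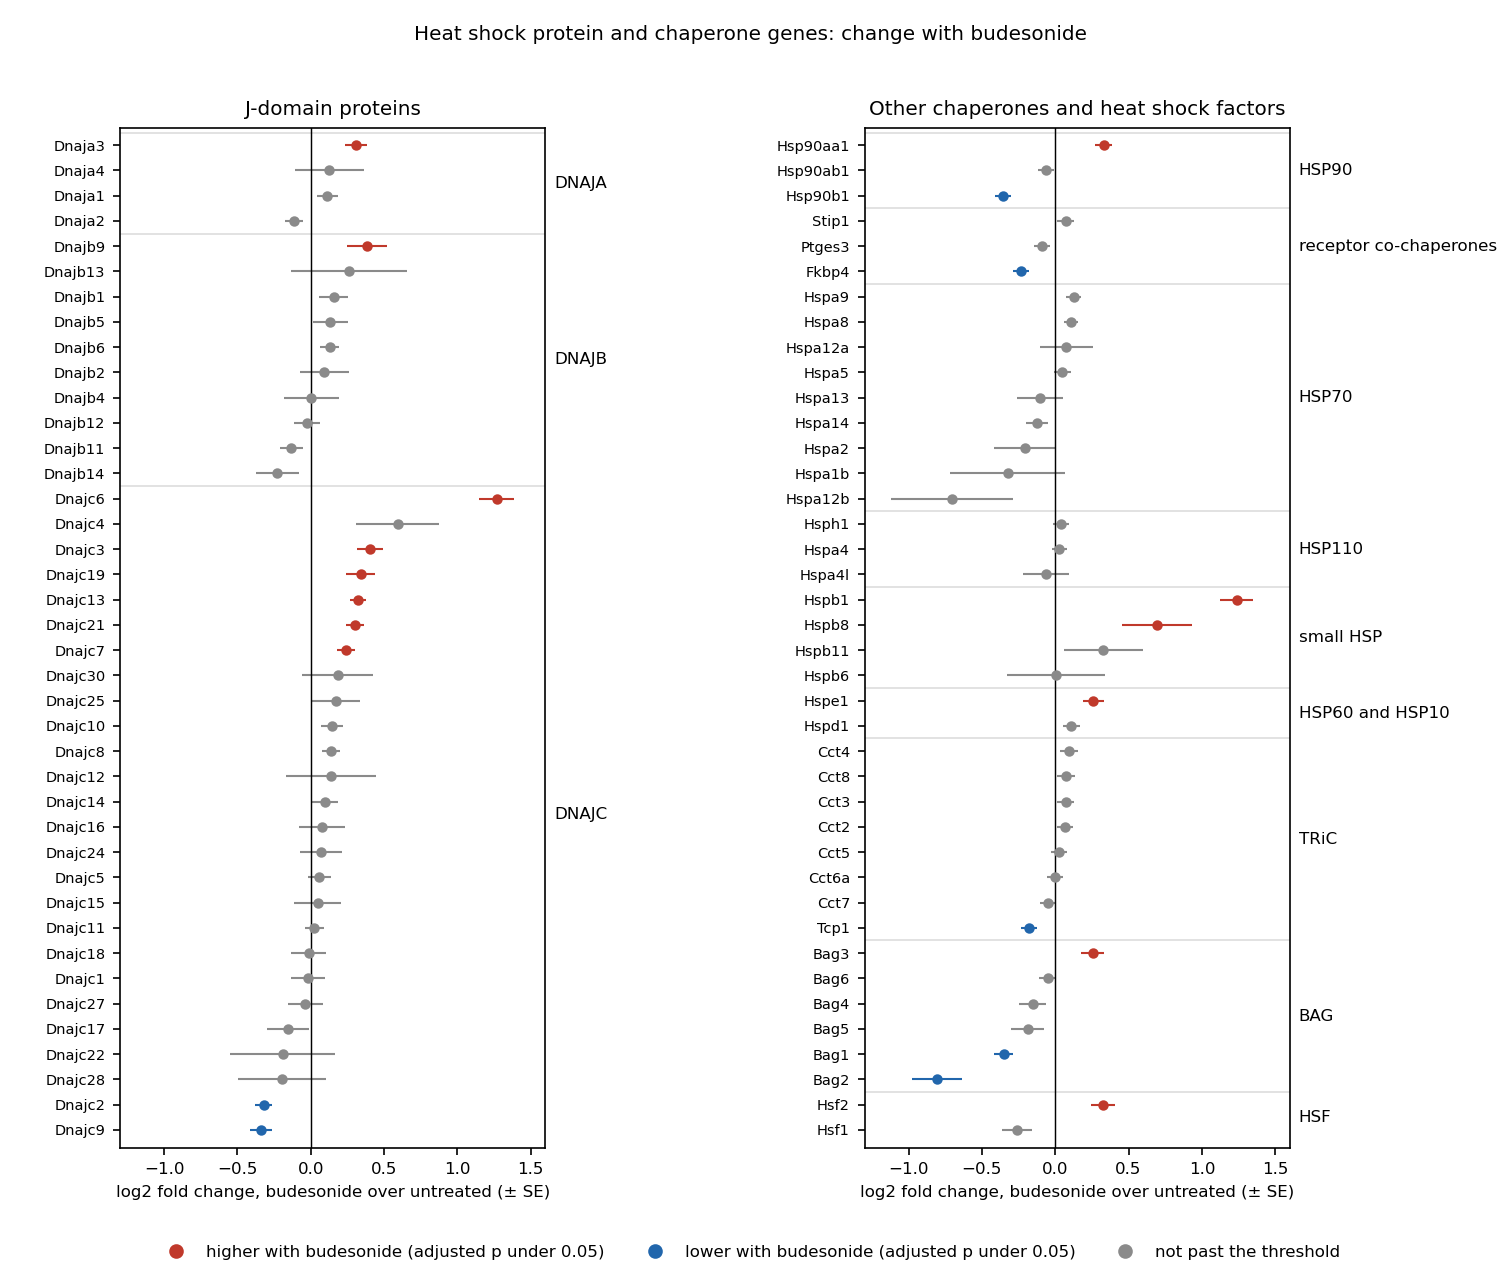
Log2 fold change of budesonide over untreated (x axis, points with SE bars) for the 80 tested chaperone and heat shock genes, grouped by family, with J-domain proteins on the left. Most points lie within 0.5 of 0, and Dnajc6 at 1.27 and Hspb1 at 1.24 lie farthest to the right.

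**Figure D2:**
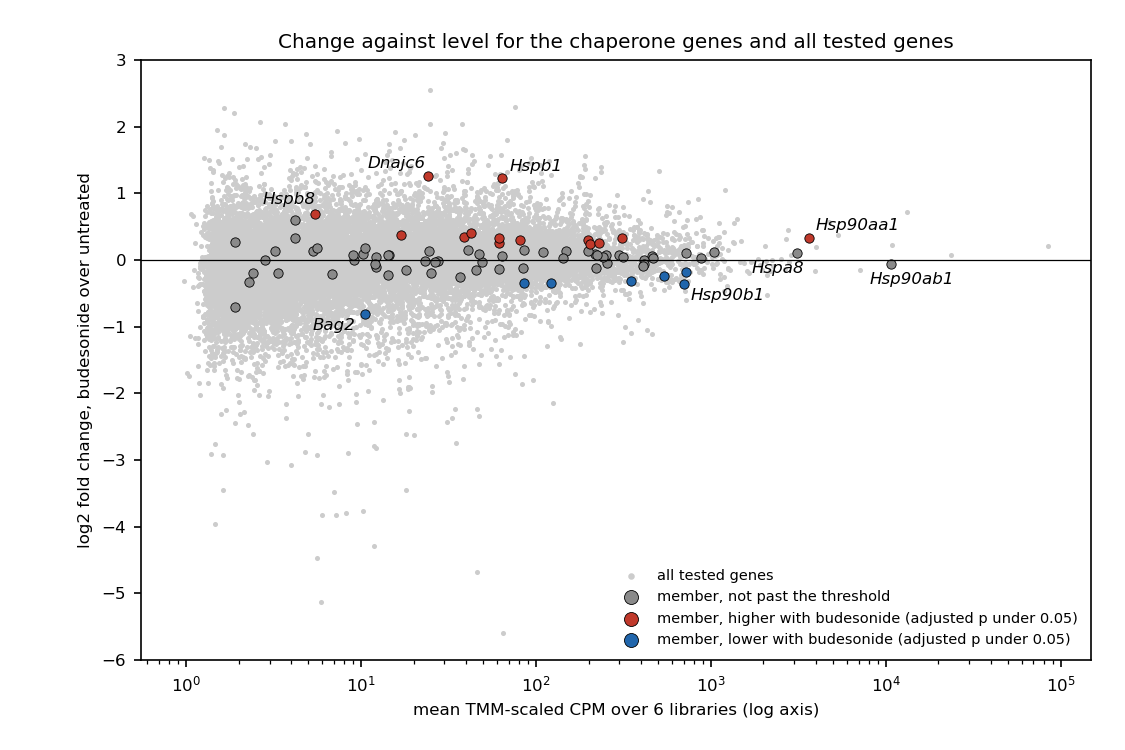
Log2 fold change (y axis) against mean TMM-scaled CPM over the 6 libraries (x axis, log scale) for all 17155 tested genes (light grey) and the 80 chaperone genes (outlined). Hsp90ab1, Hsp90aa1 and Hspa8 stand at the right end, close to or just above 0, while the grey cloud reaches far lower at the same levels as Hspb1 and Dnajc6.

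The HSP90 genes went in different directions. HSP90 binds partly folded proteins such as receptors and kinases, and mouse has the cytosolic forms Hsp90aa1, which heat induces, and Hsp90ab1, which is made constantly, plus Hsp90b1 (Grp94) in the endoplasmic reticulum. Hsp90aa1 stood at 3570, 3027 and 3038 CPM in the untreated libraries and 4169, 3719 and 4215 CPM in the budesonide libraries. Every budesonide library was above every untreated one, and the gene rose 1.26-fold (log2 fold change 0.33 ± 0.06, SE; adjusted p = 3.04e-05), although limma on the deposited normalized values did not call it (adjusted p = 0.143). Hsp90ab1 stood at 11551, 10730 and 10679 CPM without and 10805, 9707 and 11044 CPM with budesonide. Its groups overlapped and it did not pass the test (-0.06 ± 0.05, adjusted p = 0.413), but upper quartile scaling (adjusted p = 0.0368) and library totals alone (adjusted p = 0.0140) called it lower. Hsp90b1 went from 825, 750 and 784 CPM to 651, 590 and 600 CPM, with no overlap, and fell 1.28-fold (-0.36 ± 0.05, adjusted p = 8.96e-07).

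The balance between the cytosolic forms can be read inside each library without any scaling. Hsp90aa1 took 23.6%, 22.0% and 22.1% of the reads of the pair in untreated libraries and 27.8%, 27.7% and 27.6% in budesonide libraries. The groups did not overlap and the budesonide libraries lay within a narrow range, 27.7% ± 0.111 (SD, n = 3) against 22.6% ± 0.889. Together the pair supplied 47.0% to 50.4% of all chaperone reads in a library. Per kilobase of exon (GENCODE M21 exon unions, which count exons of rare transcripts too), the untreated level of Hsp90ab1 was 3663 ± 163 CPM, that of Hsp90aa1 was 817 ± 79.0 CPM and that of Hspa8 was 698 ± 21.7 CPM (SD, n = 3).

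**Figure D3:**
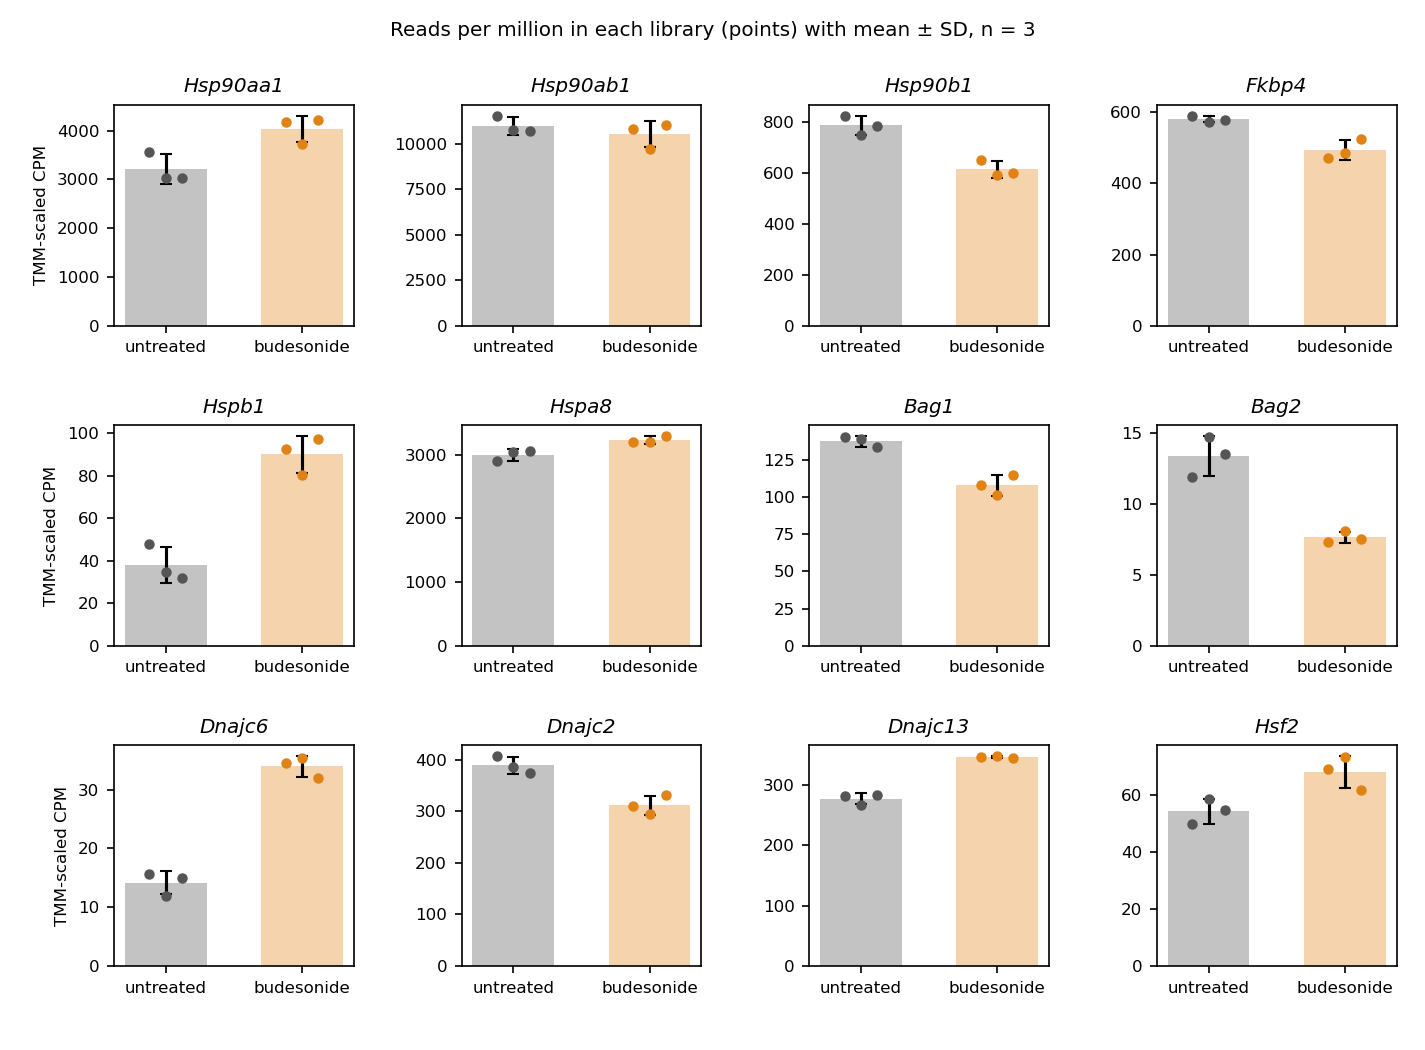
TMM-scaled CPM (y axes, from 0) of 12 chaperone genes in the 3 untreated and 3 budesonide libraries, with points for libraries, bars for means and error bars for SD. The budesonide points lie above all untreated points for Hsp90aa1, Hspb1, Hspa8, Dnajc6, Dnajc13 and Hsf2 and below them for Hsp90b1, Fkbp4, Bag1, Bag2 and Dnajc2, and they overlap for Hsp90ab1.

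Of the 3 co-chaperones chosen by symbol that act on the receptor with HSP90, 1 fell and none rose. Outside the symbol rule, Fkbp5 (log2 fold change 0.03, adjusted p = 0.820) and St13 (0.01, adjusted p = 0.899) did not pass. Neither did Ppid (-0.12, adjusted p = 0.185) and Ppp5c (-0.14, adjusted p = 0.113). Fkbp4, a peptidyl-prolyl isomerase that raises hormone binding by the receptor, stood at 591, 574 and 577 CPM without and 471, 484 and 525 CPM with budesonide. The groups did not overlap, and Fkbp4 fell 1.18-fold (-0.23 ± 0.05, adjusted p = 0.000633). Ptges3 (p23), which stabilises the closed HSP90 dimer, was at 420 ± 14.8 and 394 ± 15.8 CPM (SD, n = 3; adjusted p = 0.229). It was called lower with upper quartile scaling (adjusted p = 0.0224) and with library totals alone (adjusted p = 0.00719). A row named as a processed copy, Ptges3-ps, had 275, 144 and 143 reads in untreated and 132, 116 and 119 in budesonide libraries, so reads of Ptges3 may be split between the rows. Stip1, the adaptor between HSP70 and HSP90, was at 219 ± 8.83 and 230 ± 2.59 CPM (adjusted p = 0.406).

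Taking the wider receptor cycle list of 10 genes, all tested, 2 rose and 2 fell (40.0% called, against 28.7% of all tested genes). Hsp90aa1 and Dnajc7 (Tpr2), a J-domain protein that moves clients back from HSP90 to HSP70, rose, and Fkbp4 and Bag1 fell. Dnajc7 went from 192, 189 and 184 to 245, 209 and 212 CPM (0.24 ± 0.06, adjusted p = 0.00237), and lost its call without budesonide replicate 1 (adjusted p = 0.0891). Bag1, which binds the receptor and frees clients from HSP70, went from 140, 139 and 133 to 108, 101 and 115 CPM. It fell 1.28-fold with no overlap between groups (-0.35 ± 0.07, adjusted p = 3.16e-05).

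No HSP70 gene passed the test. HSP70 proteins bind short hydrophobic stretches of unfolded chains, and 9 of the 11 genes had enough reads. Hspa8 (Hsc70), the constant cytosolic form, stood at 2893, 3045 and 3062 CPM without and 3198, 3193 and 3299 CPM with budesonide. Every budesonide library was higher, yet the difference of 0.11 ± 0.05 on the log2 scale gave adjusted p = 0.106. Hspa9 (mortalin), the mitochondrial form, likewise stood at 995, 972 and 1021 CPM against 1087, 1065 and 1105 CPM (0.12 ± 0.05, adjusted p = 0.0621). These were also the 2 HSP70 genes with an unadjusted edgeR p under 0.05, and DESeq2 called both higher (adjusted p = 0.0347 for Hspa8 and 0.0253 for Hspa9). Both were also called without budesonide replicate 2 (adjusted p = 0.0355 for Hspa8 and 0.0177 for Hspa9) and in limma on the deposited values. Over 14 alternatives the adjusted p ranged from 0.00546 to 0.680 for Hspa8 and from 0.0155 to 0.494 for Hspa9. Hspa5 (BiP), the form of the endoplasmic reticulum, was at 311 ± 18.6 and 321 ± 15.4 CPM (adjusted p = 0.598).

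The strongly heat-inducible pair Hspa1a and Hspa1b had few counted reads in both groups. Their coding sequences are nearly identical, so reads may be shared between the rows or left out of the count. The RNA level of the pair may thus be higher than its counts. Reads of the pair together numbered 24, 25 and 25 in the untreated and 19, 12 and 19 in the budesonide libraries, where 0.422 to 0.552 CPM is the worth of 3 reads. Hspa1a itself had too few reads for a test, and Hspa1b gave -0.33 ± 0.39 (adjusted p = 0.589). Of the HSP110 genes, which exchange nucleotide on HSP70, none of 3 passed the test, none had an unadjusted p under 0.05 and DESeq2 called none. Hsph1, another heat-inducible gene, was at 237.5 ± 3.94 and 244 ± 8.80 CPM, and Hspa4 at 872.5 ± 23.4 and 890 ± 34.3 CPM.

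Small heat shock proteins hold unfolding proteins without ATP and guard actin filaments. Of 8 genes with an Hspb symbol 4 were tested, and 2 of these rose, with none falling. Hspb1 (Hsp25, the mouse HSP27) stood at 47.7, 34.9 and 31.9 CPM without and 92.4, 80.3 and 97.4 CPM with budesonide. All budesonide libraries were well above the highest untreated one, and Hspb1 rose 2.36-fold (1.24 ± 0.11, adjusted p = 1.13e-07). A processed copy, Hsp25-ps1, had 8, 10 and 4 reads without and 19, 20 and 17 with budesonide, few beside the 203 to 313 and 530 to 656 reads of Hspb1 itself. Hspb8, the partner of Bag3 in chaperone-assisted autophagy, went from 4.12, 3.80 and 4.56 to 6.48, 5.44 and 8.46 CPM and rose 1.62-fold (0.69 ± 0.24, adjusted p = 0.0225). The Hspb8 call was lost in DESeq2 (adjusted p = 0.105), with no filter on low counts (0.0591), and without untreated replicate 2 (0.0852) or budesonide replicate 3 (0.151). Hspb11, an intraflagellar transport protein grouped here by its symbol only, and Hspb6 were at 3.72 ± 0.663 and 2.82 ± 1.09 CPM untreated. They did not pass (adjusted p = 0.403 and 0.996).

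The window before the Hspb1 start is shown because this gene rose most among the classical heat shock genes. Sequences are those of RefSeq on build GRCm38.p6, matched by symbol for 73 of the 89 genes, while the reads were counted on GRCm39. Each covers the 250 bases before an annotated start, 5′ to 3′ on the strand of the gene. The Hspb1 window is chr5:135887669-135887918, plus strand, with capitals for heat shock element units spelled GAANNTTC.

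Hspb1: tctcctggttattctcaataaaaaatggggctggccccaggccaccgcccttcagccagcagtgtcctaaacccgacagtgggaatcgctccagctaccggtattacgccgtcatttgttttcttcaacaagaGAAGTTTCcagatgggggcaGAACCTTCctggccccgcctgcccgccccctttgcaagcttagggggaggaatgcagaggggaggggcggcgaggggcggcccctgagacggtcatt

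The window held 2 such matches, at 117 to 110 and 97 to 90 bases before the start. GAANNTTC, which reads the same on both strands, was found in the windows of 13 of the 73 matched genes (17.8%) and of 7.73% of all 27025 genes in the table. Besides Hspb1, the matched genes past the test that held it were Hspe1, which rose, and Fkbp4, which fell. By result, it was found for 2 of 13 matched genes that rose and 1 of 6 that fell. It was also found for 8 of 46 that did not pass and 2 of 8 not tested. The element was thus about as frequent among genes that did not pass as among those that rose. The glucocorticoid response element, searched as GNACA and TGTNC with any 3 bases between them on both strands, was in the windows of 0 of the 73 genes and of 0.440% of all genes. At so low a share a list of this size would seldom hold a match, and sequence outside the windows was not searched. Nothing is concluded from the 0.

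In mitochondria Hspd1 (HSP60) forms the folding chamber and Hspe1 (HSP10) its lid. Hspe1 stood at 174, 226 and 223 CPM without and 250, 254 and 242 CPM with budesonide. It rose 1.20-fold with no overlap (0.26 ± 0.07, adjusted p = 0.00736), but the call was lost without untreated replicate 1 (adjusted p = 0.0548), with upper quartile scaling (0.0790) and with library totals alone (0.0619). Hspd1 stood at 634, 702 and 735 against 749, 792 and 692 CPM, with overlapping groups (0.11 ± 0.06, adjusted p = 0.157), and it was called only without budesonide replicate 3 (adjusted p = 0.0472). Within a library there were 27.4, 32.2 and 30.4 Hspe1 reads per 100 Hspd1 reads untreated and 33.4, 32.1 and 34.9 with budesonide, so that the ratios overlapped. The exons of the genes overlap head to head, and with the strand setting of the counting not given, some reads may be shared.

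This pair is transcribed in opposite directions from a common promoter, shown here because it links the readings of the pair. The Hspe1 window is chr1:55087898-55088147, plus strand, on GRCm38.p6, with the heat shock element units in capitals.

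Hspe1: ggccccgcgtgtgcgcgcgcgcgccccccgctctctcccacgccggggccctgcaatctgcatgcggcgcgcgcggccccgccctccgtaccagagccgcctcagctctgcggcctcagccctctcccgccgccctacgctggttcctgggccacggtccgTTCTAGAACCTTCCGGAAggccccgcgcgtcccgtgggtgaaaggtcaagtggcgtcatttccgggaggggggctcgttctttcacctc

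The capitals form a run of alternating TTC and GAA units 89 to 72 bases before the Hspe1 start. A window of Hspd1 on the minus strand shares 215 bases with it and holds the same run in reverse, 144 to 127 bases before its own start. Runs of 3 alternating TTC and GAA units with any 2 bases between neighbours, on either strand, were found for 3 of the 73 matched genes (4.11%), the third being Dnajb6, and for 0.514% of all genes. They contain the shorter GAANNTTC and TTCNNGAA matches. TTCNNGAA alone was in windows of 7 of the 73 genes (9.59%) and of 8.11% of all genes. Dnajb6, a J-domain protein that blocks aggregation, was at 141 ± 5.38 and 155 ± 9.64 CPM (adjusted p = 0.130), and it was called higher only without budesonide replicate 2 (adjusted p = 0.0263).

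Of 8 mitochondrial chaperones in the list, all tested, 3 rose and none fell (37.5% called, against 28.7% of all tested genes). Besides Hspe1 these were Dnaja3 (Tid1), the J-domain partner of mortalin, and Dnajc19, a J-domain protein of the inner membrane. Dnaja3 stood at 64.2, 76.3 and 77.1 CPM without and 92.6, 90.8 and 85.7 CPM with budesonide and rose 1.24-fold (0.31 ± 0.07, adjusted p = 0.00116). Dnajc19 went from 29.0, 39.4 and 33.9 to 42.3, 45.03 and 42.5 CPM (0.34 ± 0.10, adjusted p = 0.00702) and was no longer called once untreated replicate 1 was left out (adjusted p = 0.0706). In untreated replicate 1 Hspe1, Dnaja3, Dnajc19 and Hspd1 all read lowest of the 6 libraries. The other 5, Hspd1 and Hspa9 among them, had log2 fold changes from 0.02 for Dnajc11 to 0.18 for Dnajc30.

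TRiC, the cytosolic chaperonin that folds actin and tubulin, is built of 8 different subunits, 1 gene for each (Cct6a for CCT6). Among them 7 did not pass and Tcp1, the subunit CCT1, fell. Tcp1 went from 826, 756 and 724 to 712, 650 and 678 CPM (-0.18 ± 0.06, adjusted p = 0.0117). Its groups were separated only narrowly, and the call was lost in DESeq2 (adjusted p = 0.0847), without untreated replicate 1 (0.135) and without budesonide replicate 2 (0.0704). Its exons overlap those of Acat3 and Mrpl18 on the opposite strand. Tcp1 made up 25.9%, 23.1% and 21.8% of TRiC reads untreated and 21.6%, 20.2% and 21.4% with budesonide, where untreated replicate 1 was highest. The other subunits lay between -0.05 ± 0.05 for Cct7 and 0.09 ± 0.06 for Cct4 on the log2 scale. Library totals alone called Cct7 lower (adjusted p = 0.0386).

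**Figure D4:**
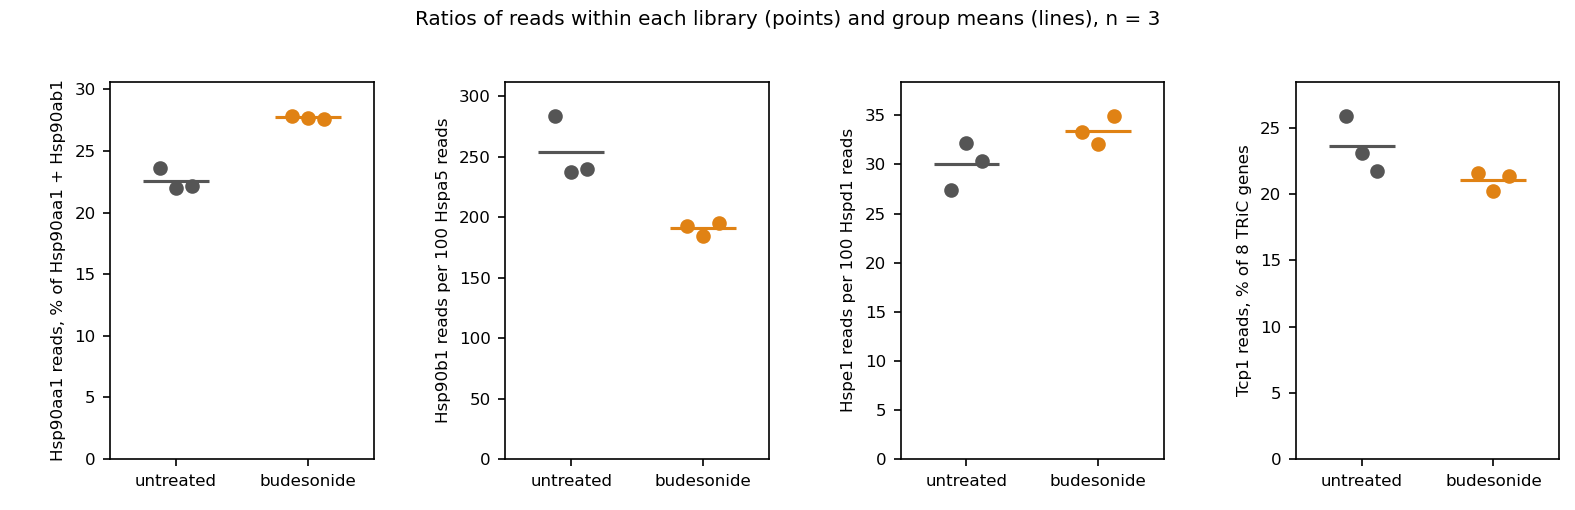
Ratios of reads inside each library (y axes, from 0), with a point for each of 3 untreated and 3 budesonide libraries and a line for each group mean. The Hsp90aa1 share (22.6% to 27.7%, means) and the Hsp90b1 to Hspa5 ratio separate the groups, the Hspe1 to Hspd1 ratio overlaps, and the Tcp1 share is separated by little.

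Chaperones of the endoplasmic reticulum split. Of 10 genes, all tested, 2 rose and 1 fell. Hsp90b1, given above, fell while Hspa5, a partner of it in that compartment, did not pass, and the reads of Hsp90b1 per 100 reads of Hspa5 were 284, 238 and 240 untreated and 193, 185 and 196 with budesonide. No budesonide library reached the lowest untreated one. Dnajc3 (p58IPK), a co-chaperone of Hspa5 that also inhibits the stress kinase PERK, went from 36.4, 36.0 and 37.5 to 49.2, 49.7 and 46.5 CPM and rose 1.32-fold (0.41 ± 0.09, adjusted p = 0.000335). The replicates were tight and the groups clearly apart. Dnajb9 (ERdj4), which restrains the stress sensor IRE1, rose from 14.02, 13.2 and 17.0 to 21.0, 18.2 and 18.0 CPM (0.38 ± 0.14, adjusted p = 0.0301). Among the 21 called chaperone genes this call was lost most often, in 8 of 14 alternatives, DESeq2 (adjusted p = 0.128) and leaving out untreated replicate 1 (0.0732), untreated replicate 2 (0.160) or budesonide replicate 1 (0.175) among them. Dnajb11 (ERdj3) was at 64.5 ± 3.86 and 58.8 ± 2.65 CPM (adjusted p = 0.226) and Dnajc10 (ERdj5), a disulfide reductase, at 80.8 ± 8.70 and 89.2 ± 6.72 CPM (adjusted p = 0.163). Leaving out untreated replicate 1 gave a call of Dnajc10 as higher (adjusted p = 0.0178), as did leaving out budesonide replicate 2 (0.0387), and Dnajb11 was called lower with library totals alone (0.0360).

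The endoplasmic reticulum stress element, CCAAT and CCACG with any 9 bases between them on either strand, was found before the starts of 3 of the 73 matched genes (4.11%) and of 0.130% of all genes. These 3 are Hspa5, Hsp90b1 and Dnajc3. The windows of Hsp90b1, which fell, and Dnajc3, which rose, are shown because the genes share the element while their readings differed. On GRCm38.p6 they are chr10:86705445-86705694, minus strand, for Hsp90b1 and chr14:118937682-118937931, plus strand, for Dnajc3, with the element in capitals.

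Hsp90b1: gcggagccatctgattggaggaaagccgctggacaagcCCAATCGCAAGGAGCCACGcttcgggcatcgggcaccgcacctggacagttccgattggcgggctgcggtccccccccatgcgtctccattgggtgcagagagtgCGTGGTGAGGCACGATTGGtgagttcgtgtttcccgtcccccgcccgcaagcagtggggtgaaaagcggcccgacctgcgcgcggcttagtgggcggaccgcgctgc
Dnajc3: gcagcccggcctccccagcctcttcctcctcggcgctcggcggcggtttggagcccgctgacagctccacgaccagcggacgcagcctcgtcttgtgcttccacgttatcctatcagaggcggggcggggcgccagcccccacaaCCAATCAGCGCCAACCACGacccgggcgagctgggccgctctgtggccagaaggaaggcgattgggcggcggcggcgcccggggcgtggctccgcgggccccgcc

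Hsp90b1 held 2 copies, the nearer one, 107 to 89 bases before the start, in reverse orientation. The copies of Hspa5 and Dnajc3 lay 65 to 47 and 105 to 87 bases before the start. A match describes the letters only and was not tested for binding.

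The J-domain proteins start the ATP cycle of HSP70 and choose its substrates. Of 43 genes 40 were tested, 8 rose and 2 fell, with a median log2 fold change of 0.10. By class this was 1 rise among 4 Dnaja, 1 among 10 Dnajb, and 6 rises and 2 falls among 26 Dnajc genes. Dnajc6 (auxilin), which strips clathrin from vesicles together with Hspa8, changed most. It stood at 15.7, 11.95 and 14.9 CPM without and 34.5, 35.5 and 32.0 CPM with budesonide, so that each budesonide library held more than any untreated library by a wide margin. It rose 2.41-fold (1.27 ± 0.12, adjusted p = 8.21e-12). Dnajc13 (RME-8), which works with Hspa8 on endosomes, stood at 281, 267 and 283 against 346, 348 and 345 CPM and rose (0.32 ± 0.06, adjusted p = 7.93e-06). Here the budesonide libraries differed by less than 4 CPM.

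Members that work at the ribosome or on chromatin went in different directions. Dnajc2 (Mpp11 or Zrf1), which binds the ribosome with Hspa14 and also has a role on ubiquitinated histone H2A, went from 408, 386 and 375 to 311, 294 and 331 CPM and fell (-0.32 ± 0.06, adjusted p = 1.54e-05). Its partner Hspa14 was at 88.5 ± 4.41 and 81.0 ± 6.59 CPM and did not pass (adjusted p = 0.218), although library totals alone called it lower (0.0260). Dnajc9, a chaperone of histones H3 and H4, went from 88.3, 94.3 and 105 to 82.7, 75.1 and 68.4 CPM and fell 1.27-fold (-0.34 ± 0.08, adjusted p = 0.000408), with the groups separate. Dnajc21, which takes part in maturation of the large ribosomal subunit, rose from 176, 184 and 172 to 205, 215 and 236 CPM (0.30 ± 0.06, adjusted p = 0.000127). The general cytosolic J-domain proteins did not pass: Dnaja1 was at 105 ± 4.20 and 113 ± 12.9 CPM, Dnaja2 at 230 ± 8.48 and 213 ± 11.8 CPM, and the heat-inducible Dnajb1 at 38.7 ± 2.43 and 43.4 ± 5.18 CPM. Dnaja2 was called lower with upper quartile scaling and with library totals alone.

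Among the Bag genes, which release substrates from HSP70 through the BAG domain, 1 of 6 rose and 2 fell. Bag2, an inhibitor of the ubiquitin ligase CHIP, went from 11.9, 14.8 and 13.5 to 7.33, 8.09 and 7.54 CPM and fell 1.75-fold (-0.81 ± 0.17, adjusted p = 0.000161), the largest fall of the 80 tested genes. All budesonide values lay well under the lowest untreated one. Bag3, an HSF1 target that directs clients to autophagy, went from 57.5, 54.6 and 55.9 to 72.1, 65.0 and 62.5 CPM (0.25 ± 0.08, adjusted p = 0.0117). It lost its call without budesonide replicate 1 (adjusted p = 0.133) or untreated replicate 2 (0.0597), with no filter on low counts (0.0712) and with library totals alone (0.0832). Bag4, Bag5 and Bag6 did not pass, with log2 fold changes of -0.15, -0.19 and -0.05.

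Of the 2 heat shock factors 1 rose and the other lay at the threshold. Hsf2, which binds heat shock elements and is active in early development, stood at 49.8, 58.6 and 54.8 CPM without and 69.2, 73.3 and 62.0 CPM with budesonide and rose (0.33 ± 0.08, adjusted p = 0.00159). Hsf1, the master factor of the heat shock response, stood at 44.7, 38.5 and 37.4 against 38.2, 29.1 and 33.1 CPM, with overlap, and lay at the threshold (-0.26 ± 0.10, adjusted p = 0.0503). Hsf1 was called lower in 5 of 14 alternatives. These were the replicate number as a block (adjusted p = 0.0312), leaving out budesonide replicate 1 (0.0148), upper quartile scaling (0.0127), library totals alone (0.00837) and no filter on low counts (0.0413). It was not called in the others, among them DESeq2 (0.269), limma (0.165) and leaving out budesonide replicate 2 (0.344). The difference between the changes of Hsf1 and Hsf2 was not tested. Of 12 genes known to be induced through HSF1, a list drawn up with earlier results known, 11 were tested. Of the tested genes 5 rose and none fell (45.5% called, against 28.7% of all tested genes): Hspb1, Hspb8, Hsp90aa1, Hspe1 and Bag3. Among these Hspb1 alone passed in all 14 alternatives. The remaining 6 tested, Hspa1b, Hspa8, Hsph1, Dnajb1, Dnaja1 and Hspd1, had log2 fold changes from -0.33 to 0.16. The list leaves out other heat shock and stress genes, so nothing is concluded from its share. Of 9 such genes tested and given below, 4 rose and 1, Serpinh1, fell. Fkbp4, whose window held GAANNTTC, is also outside the list and fell.

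The 9 genes with too few reads were Hspa1a, Hspa1l, Hspb2, Hspb3, Hspb7, Hspb9, Dnajb3, Dnajb7 and Dnajb8. Each had at most 10 reads in any library. Several of these are known mainly from testis or muscle.

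Other genes of the chaperone system, from 5 lists outside the symbol rule, moved as follows: 68 of 71 listed genes were tested, 21 rose and 6 fell (39.7%, against 28.7% of all genes). The lists were drawn up with earlier results of these data known, so nothing is concluded from the larger share. They also hold stress genes that are not chaperones, such as Sqstm1, Hmox1, Ddit3 and Xbp1, which rose. Among HSP90 co-chaperones and the receptor gene, 7 of 18 rose and 2 fell. Sugt1, which links HSP90 to kinetochore assembly, rose from 85.0 ± 0.843 to 134 ± 11.8 CPM, and Fnip1 and Fnip2, which slow HSP90 and bind folliculin, rose 1.61-fold and 1.45-fold. Cdc37, the kinase adaptor of HSP90, fell from 383 ± 17.2 to 324 ± 14.3 CPM (-0.24 ± 0.06, adjusted p = 0.000630) and Nudc from 473 ± 6.82 to 408 ± 26.7 CPM (-0.21 ± 0.06, adjusted p = 0.00252). The receptor gene Nr3c1 was at 30.5, 34.2 and 36.0 CPM without and 39.2, 41.6 and 42.3 CPM with budesonide (adjusted p = 0.0191), a call lost in 6 of 14 alternatives, among them leaving out untreated replicate 1 (0.0924) or budesonide replicate 3 (0.0536).

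In the endoplasmic reticulum list 6 of 20 rose and 2 fell. Those that rose were the transcription factors Xbp1, from 19.5 ± 1.15 to 39.5 ± 2.60 CPM (1.01 ± 0.11, adjusted p = 1.75e-10), and Ddit3 (CHOP), from 13.2 ± 0.497 to 29.1 ± 1.20 CPM (1.13 ± 0.12, adjusted p = 3.04e-10), the kinase PERK (Eif2ak3, 0.45 ± 0.10), Atf6 (0.37 ± 0.09), Sel1l (0.38 ± 0.08) and Herpud1 (0.46 ± 0.11). Hyou1 (Grp170), the HSP110 of this compartment, fell from 196 ± 12.7 to 168.5 ± 6.32 CPM (-0.21 ± 0.06, adjusted p = 0.00608) and lost its call in DESeq2 (adjusted p = 0.0582), in limma (0.0589) and without untreated replicate 2 (0.0629). Ern1 (IRE1) fell by 0.32 on the log2 scale (adjusted p = 0.0360), a call lost in 6 of 14 alternatives. Leaving out untreated replicate 1 or 2 or budesonide replicate 1 or 2 gave adjusted p from 0.0921 to 0.203 for Ern1.

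**Figure D5:**
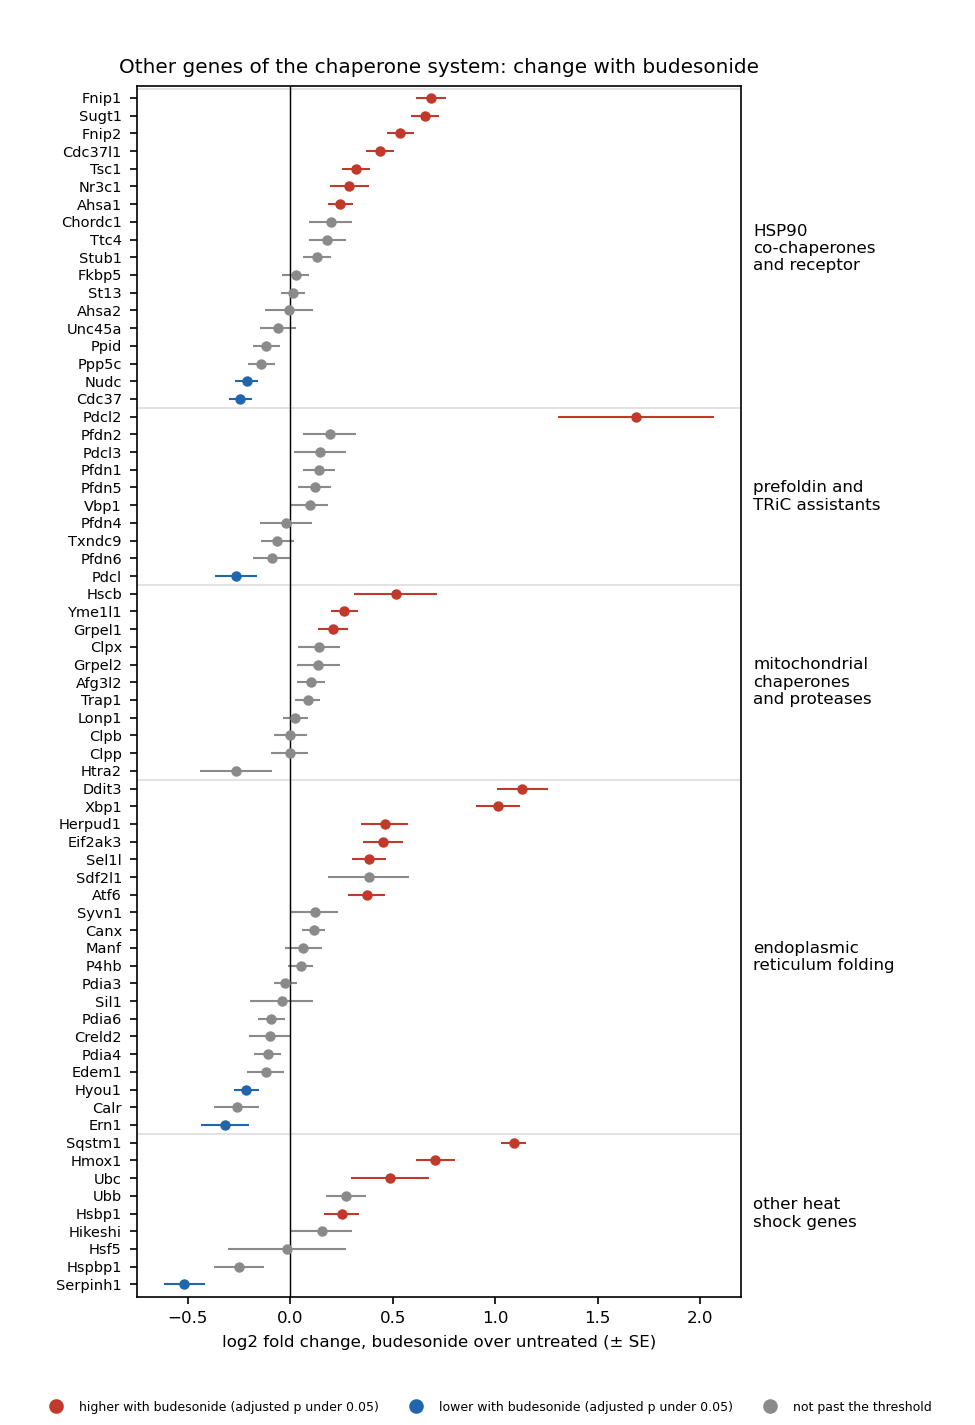
Log2 fold change of budesonide over untreated (x axis, points with SE bars) for the 68 tested genes of 5 further chaperone lists. In the endoplasmic reticulum list Ddit3 and Xbp1 lie near 1, and Ern1 and Hyou1 lie below 0.

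The remaining lists were smaller. Of 10 prefoldin genes and TRiC assistants 1 rose, Pdcl2, from 1.19 ± 0.487 to 3.83 ± 1.19 CPM, and 1 fell, Pdcl (-0.26 ± 0.10, adjusted p = 0.0460), a call lost in 8 of 14 alternatives. For Pdcl, leaving out untreated replicate 1 or 2 or budesonide replicate 1 or 2 gave adjusted p from 0.0514 to 0.358. No prefoldin subunit passed in either direction. Of 11 mitochondrial chaperones and proteases 3 rose and none fell, the protease Yme1l1 from 114 ± 8.17 to 137 ± 3.02 CPM and, less stably, the nucleotide exchange factor Grpel1 and the cluster-transfer co-chaperone Hscb, lost in 8 and 10 of 14 alternatives. For Grpel1 the adjusted p was 0.0576 to 0.168 without untreated replicate 1 or 2 or budesonide replicate 1 or 3, and for Hscb 0.0907 to 0.195 without untreated replicate 1 or 3 or budesonide replicate 2 or 3. Of 9 tested stress genes 4 rose and 1 fell. The autophagy adaptor Sqstm1 (p62) rose from 112 ± 6.45 to 239 ± 9.21 CPM (1.09 ± 0.06, adjusted p = 5.21e-19) and Hmox1, the heme-degrading enzyme, 1.63-fold. Serpinh1 (Hsp47), the collagen chaperone, fell from 42.2 ± 3.11 to 29.45 ± 2.09 CPM (-0.52 ± 0.10, adjusted p = 4.79e-05).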

How the data were processed

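The authors deposited a table of raw read counts per gene symbol and a table of normalized signal. Per the submitters' processing notes, reads passed through bcl2fastq, cutadapt 2.5, STAR 2.7.5c and featureCounts 2.0 on GRCm39, with DESeq2 also named. The sources used here do not give the annotation or the strand setting. Exons of further called genes overlap those of other genes in GENCODE M21. Among them are Dnaja3 (Vasn and Coro7), Dnajc19 (Fxr1) and Dnajc7 (Cnp and Nkiras2), and some of their reads may be shared or left out. Dividing the counts of a library by a single factor returned the deposited signal to within 0.0437 reads (tolerance 0.05).

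Groups came from sample titles. Counts of all 53819 symbols entered edgeR 4.0.16 (R 4.3.3): filterByExpr (minimum count 10, total 15), TMM, a robust quasi-likelihood model of group alone, Benjamini-Hochberg over 17155 tested genes, threshold 0.05. The table of chaperone genes, and every printed row, comes from that fit. Fold changes are budesonide over untreated, SEs derive from the F statistic, and means ± SD are TMM-scaled CPM, n = 3. On data simulated for this comparison over 16546 genes, planted changes of 1.25-fold were recovered in 36%, of 1.5-fold in 82%, and of 2-fold or 4-fold in 100%, with 9 false calls. The simulation gave all genes the same spread and planted 50 changes of each size, none in genes low in CPM. In the data the spread differs by gene and many more genes changed. These rates may therefore not carry over to the data, least of all to genes low in CPM.

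Genes and lists were chosen with earlier results of these data known. Any tested gene outside the J-domain families could be named, as could J-domain genes past the threshold with a mean of at least 1 CPM and others by role. Of other lists, up to 3 risen and 3 fallen genes were named, plus Nr3c1. Dnaja2, Dnajb6, Fkbp5, St13, Ppid, Ppp5c, Atf6, Sel1l and Herpud1 were named after their values were seen. Alternatives were DESeq2 1.42.0, RLE, upper quartile and no scaling factors, no filter, 1 CPM in 3 libraries, the replicate number as a block, limma 3.58.1 on log2 of the deposited signal plus 1, and each library left out. Depth gives 3 reads per library as 0.422 to 0.552 CPM.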

Additional observations from a re-analysis of the deposited data

How the results depend on the processing

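Over 14 alternatives no called gene reversed, and 13 of the 21 called chaperone genes passed in all of them: Hspb1, Dnajc6, Dnajc13, Dnajc2, Dnajc21, Dnajc3, Dnajc9, Dnaja3, Hsf2, Hsp90b1, Fkbp4, Bag1 and Bag2. The other 8 lost the call in at least 1, and 14 genes not called gained one. The number of chaperones lower with budesonide, 7, became 11 under upper quartile scaling and 14 under library totals alone. Their median log2 fold change of 0.06 became 0.0885 in DESeq2, 0.0094 with the upper quartile, -0.0167 without scaling factors and 0.0323 without the filter on low counts, and ranged from 0.0294 to 0.0991 when 1 library was left out. The scalings moved the median of all genes by -0.05 and -0.08. Leaving out 1 library gave 11 to 19 higher and 6 to 8 lower chaperones, the 19 without budesonide replicate 2. Of the other chaperone pathway genes, 6 were lower, against 3 in DESeq2, 11 with no scaling factors and 3 in limma on the deposited signal, with 4 to 7 when 1 library was left out. Of all genes, 2316 were lower, against 1318 in DESeq2. The causes were not tested. With the replicate number as a block, 14 chaperones were higher and 8 lower. Deviations of same-numbered libraries correlated at 0.0404, 0.0595 and -0.0176, so the numbers were not treated as pairs. Most called changes are under 1.5-fold, where recovery on simulated data was incomplete, and genes under a few CPM are measured poorly.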
